A study of Rattus norvegicus with 24 samples.

Results

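The proximal tubule is the first part of the nephron after the glomerulus, and it takes back most of the glucose, amino acids, organic acids, bicarbonate and filtered protein before the fluid goes on. Its cells do so with carriers of the solute carrier (Slc) family on the brush border and the basolateral side, with a few ATP-driven pumps (Abc family), and with the endocytic receptors megalin and cubilin. The convoluted segments lie in the cortex and the straight segment runs down into the outer medulla, so that a piece of medulla holds late proximal tubule in an amount that depends on where it is cut. Lithium is filtered freely and is reabsorbed in this tubule along with sodium.

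Expression of 37 genes for these carriers and receptors was followed in rat kidney. They were chosen by name: 3 belong to the endocytic receptor complex, 4 carry sugars, 10 carry amino acids or peptides or are partners of such carriers, 10 carry organic ions, 5 carry carboxylates or vitamin C, 4 carry inorganic ions and 1 carries fatty acids. A transcript cluster, the set of probes that stands for 1 gene, was found under the symbol of 35 of the 37 among the 28894 clusters of the arrays. Slc6a20 was read under its rat symbol Slc6a20a, and of 3 clusters for Abcc4 the one with the highest mean was taken. The expression of Slc17a1 and Abcc2 was not analysed here.

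All animals were male Wistar rats. The lithium group (6 animals) ate food with 40 mmol lithium per kg for 7 days and 60 mmol per kg after that, for 6 months in all, and had a salt block, while the control group (6 animals) ate a standard diet. Renal cortex and renal medulla of the same 12 animals were put on 24 arrays, 1 array per animal and tissue, so that the groups are control cortex, lithium cortex, control medulla and lithium medulla. Each sample was whole tissue, and fewer proximal tubule cells in a piece cannot be told apart from less RNA per cell.

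Values are log2 signals, from which an effect of scan date had been removed before deposit. The array of lithium cortex animal 17 stood alone in its scan group and held the mean of its group for every cluster to within 6.667e-05, so lithium cortex is given with n = 5. The median of all clusters lay between 5.75 and 5.83 on the 12 cortex arrays and between 6.12 and 6.22 on the 12 medulla arrays. The tissue labels were checked on the inner medulla list, measured by 4 genes that include the urea transporter Slc14a2. It had mean log2 signals of 9.77 to 11.49 over the 6 control medulla arrays and 6.17 to 6.80 over the 6 control cortex arrays, and all 4 were higher in medulla. Other lists were less clear. In limma, 1 of 5 thick ascending limb genes was called higher in medulla, and of 4 glomerulus genes 2 were called lower and 1 higher. A cluster was tested in a tissue if it reached a log2 signal of 6 on at least 4 of its 12 arrays, which 34 of the 35 members did in cortex and 31 in medulla. Slc22a7, an organic anion carrier, passed in neither tissue, with log2 signals of 4.60 to 5.64 on the arrays used, and the glucose carrier Slc2a2, the fructose carrier Slc2a5 and the monocarboxylate carrier Slc5a8 did not pass in medulla.

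Transcription factors of the HNF1 and HNF4 families bind in the region before the start of proximal tubule genes. This region is shown for 3 members as examples of such promoters. Slc22a8 (-3.50) and Slc6a19 (-3.14) hold the HNF1 core site GTTAAT and had large log2 differences between control medulla and control cortex. Slc6a18 (-1.29) and Slc23a1 (-1.22) hold it too, with smaller differences and overlapping groups. A link between the site and the tissue difference was not tested. Slc3a1 alone among the members searched holds the HNF4 motif. The sequences are the 250 bases before the RefSeq start site, 5′ to 3′ on the strand of the gene, with the match in capitals. Slc22a8 lies at chr1:214927034-214927283 (plus strand), Slc6a19 at chr1:31414494-31414743 (plus strand) and Slc3a1 at chr6:15394750-15394999 (minus strand) of the GRCr8 build.
Slc22a8: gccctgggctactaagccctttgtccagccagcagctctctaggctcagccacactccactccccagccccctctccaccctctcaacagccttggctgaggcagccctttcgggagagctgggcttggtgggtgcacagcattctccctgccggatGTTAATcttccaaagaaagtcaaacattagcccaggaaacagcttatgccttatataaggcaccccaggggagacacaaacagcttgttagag
Slc6a19: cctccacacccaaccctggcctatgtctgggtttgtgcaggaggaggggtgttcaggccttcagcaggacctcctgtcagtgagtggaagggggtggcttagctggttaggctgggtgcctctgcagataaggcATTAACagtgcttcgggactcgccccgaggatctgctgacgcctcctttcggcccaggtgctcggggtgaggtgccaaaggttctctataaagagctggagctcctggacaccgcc
Slc3a1: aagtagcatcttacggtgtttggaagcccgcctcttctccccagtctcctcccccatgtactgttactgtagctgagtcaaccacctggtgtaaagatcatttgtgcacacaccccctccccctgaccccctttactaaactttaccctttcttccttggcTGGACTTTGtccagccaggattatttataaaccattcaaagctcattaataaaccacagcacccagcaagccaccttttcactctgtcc
Searched on both strands from 250 bases before to 50 bases after the start, the HNF1 core site GTTAAT (its reverse complement in Slc6a19) was found in 5 of 35 promoters of 34 member genes, or 14.29% (Slc22a8, Slc6a19, Slc6a18, Slc23a1 and Abcc2), and in 7.45% of 33469 promoters of the RefSeq table. The HNF4 motif CAAAGTCCA (its reverse complement in Slc3a1) was found in 1 of the 35 and in 0.39% of all. A match is a description of these letters and not of binding.

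How the carriers are spread between the tissues was asked first, in the 6 control animals. Of the 34 members tested, 29 were lower in control medulla than in control cortex and 1, the efflux pump Abcc4, was higher. Over all 16388 clusters tested, 8.65% were lower and 66.8% were higher, and the median difference was 0.50 on the log2 scale against -2.16 over the 34 members. The shift of all clusters changed with the scaling. With each array centred on its median, 6110 clusters were higher and 3243 lower instead of 10941 and 1418, the median of all clusters was 0.14 and that of the members -2.51, and with quantile normalization repeated over both tissues 4979 were higher and 4091 lower, with medians of 0.05 and -2.50. In 22 of the 29 every control medulla array lay under every control cortex array, which was so for 5.51% of all clusters. The 29 and the 22 include Slc2a2 and Slc5a8, which did not pass the filter in medulla. They entered the test only through cortex, where they were higher. Scan groups were recovered within each tissue, so any scan difference between the tissues cannot be told apart from the tissue.

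**Figure D1:**
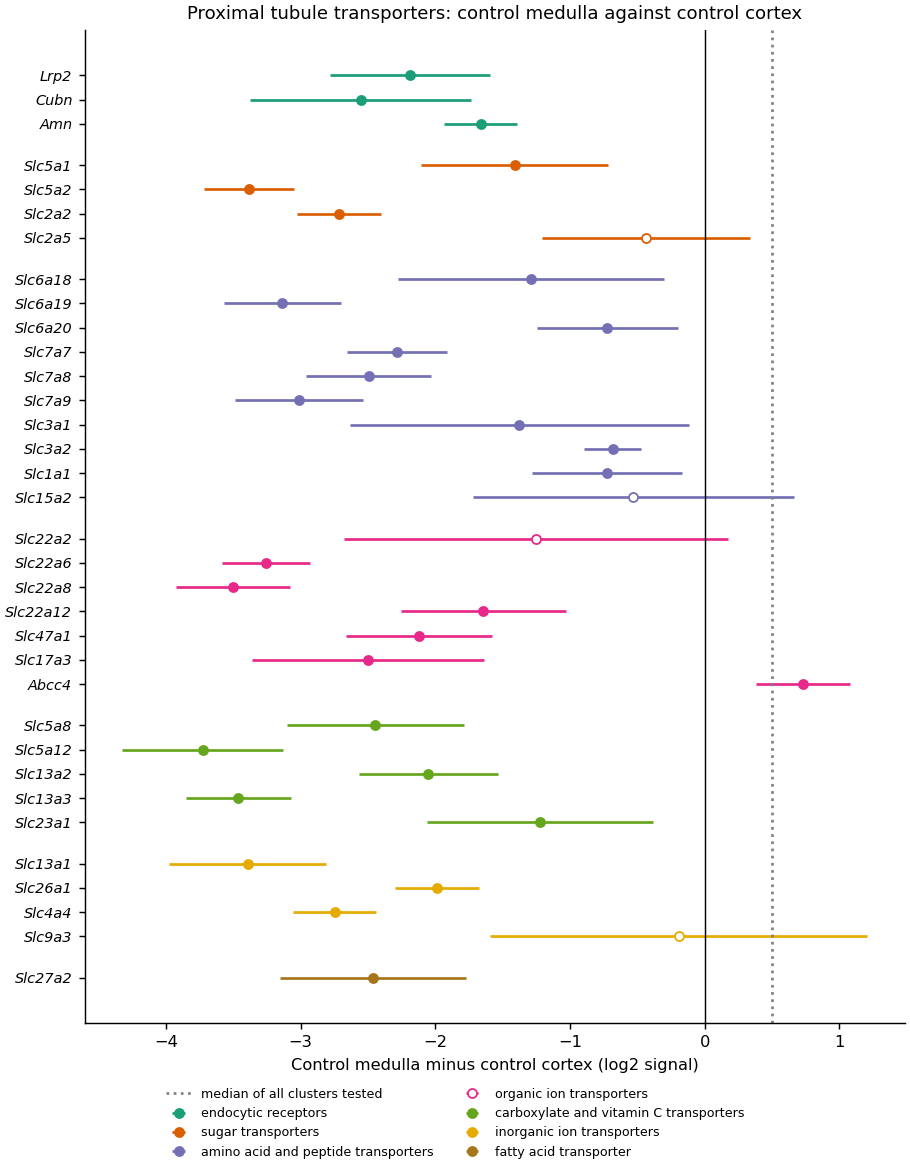
Difference in log2 signal between control medulla and control cortex (horizontal axis) for the 34 members tested, grouped and coloured by role. Points are estimates from limma with 95% confidence intervals, filled where the adjusted p was under 0.05; the dotted line is the median of all clusters tested (0.50). Slc5a12 lies farthest to the left (-3.73), and Abcc4 (0.73) is the only filled point to the right of 0.

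All 3 endocytic genes were lower in medulla. Lrp2, which encodes megalin, the large receptor for filtered protein, had log2 signals of 11.29 (lowest), 11.43 (median) and 11.51 (highest) in control cortex and 8.20, 9.13 and 10.60 in control medulla. The groups did not overlap, and the difference was -2.19 (SE 0.28, adjusted p = 1.49e-06), a 4.56-fold lower signal. Cubn, which encodes cubilin, the receptor for albumin and vitamin B12 complexes that works with megalin, was 5.88-fold lower (-2.56, SE 0.39). Amn, whose product amnionless carries cubilin to the membrane, was 3.17-fold lower (-1.66, SE 0.13).

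Among the sugar carriers, Slc5a2, the low-affinity and high-capacity glucose carrier SGLT2 of the early tubule, ran from 9.85 through a median of 10.30 to 10.45 in control cortex and from 6.75 through 6.88 to 6.97 in control medulla. It was 10.4-fold lower in medulla (-3.38, SE 0.16, adjusted p = 7.66e-12). Slc2a2, the basolateral glucose carrier GLUT2 of the same early cells, was lower (-2.72, SE 0.15), with no fold given because its medulla signal did not pass the filter. Slc5a1, the high-affinity carrier SGLT1 of the late tubule, differed less (-1.41, SE 0.33, 2.66-fold), and its groups overlapped, with 7.62 to 8.20 in cortex and 5.33 to 8.10 in medulla. The fructose carrier Slc2a5 did not pass the test (-0.44, 95% confidence interval -1.21 to 0.34), though it did without control medulla animal 29 (-0.87). Without animal 30, its lowest control medulla array, the estimate was smaller in size and did not pass.

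Of the 10 genes for amino acid and peptide transport, 9 were lower in medulla. Slc6a19, the brush border carrier of neutral amino acids, had log2 signals of 8.91, 9.49 and 9.55 (lowest, median and highest) in control cortex and 6.08, 6.26 and 6.59 in control medulla, and was 8.79-fold lower (-3.14, SE 0.21, adjusted p = 4.60e-10). Slc7a9, the light chain of the cystine and dibasic amino acid carrier, was 8.08-fold lower (-3.01, SE 0.23). Its heavy chain, Slc3a1, differed by only -1.38 (SE 0.60, adjusted p = 0.0451) and ran in control medulla from 7.09 through a median of 9.21 to above its whole cortex range of 10.12 to 10.68. That call was lost in 13 of 24 fits that left out 1 array each (-1.87 to -0.89 over the 24, lowest in size without control medulla animal 30), and also with no filter on low values. Of the basolateral carriers, Slc7a8 was 5.63-fold and Slc7a7 4.88-fold lower, and Slc3a2, the heavy chain that pairs with both and is made in many cell types, was 1.61-fold lower (-0.68, SE 0.10). The late neutral amino acid carrier Slc6a18 (-1.29, SE 0.47), the imino acid carrier Slc6a20 (-0.72, SE 0.25) and the glutamate carrier Slc1a1 (-0.73, SE 0.27) were lower with overlapping groups. Without control medulla animal 30 the calls for Slc6a18 (-0.88) and Slc1a1 (-0.47) were lost, and without control medulla animal 15 they were lost as well (-1.05 and -0.56). The peptide carrier Slc15a2, a gene of the straight segment, did not pass (-0.53, 95% confidence interval -1.72 to 0.66) except without control medulla animal 29 (-1.14). Its control medulla values ran from 5.36 in animal 30 to 9.97 in animal 29, on both sides of its cortex range of 7.43 to 8.64. Without animal 30 its estimate showed almost no difference between the tissues.

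The organic ion carriers differed most among themselves. Slc22a8, the basolateral organic anion carrier OAT3, ran from 10.68 through 10.91 to 10.97 in control cortex and from 7.13 through 7.36 to 7.59 in control medulla. It was 11.3-fold lower in medulla (-3.50, SE 0.20, adjusted p = 9.27e-11). Slc22a6, its relative OAT1, was 9.57-fold lower (-3.26, SE 0.15). The phosphate and urate carrier Slc17a3 (-2.50, SE 0.41), the luminal cation exchanger Slc47a1 (-2.12, SE 0.26) and the urate exchanger Slc22a12 (-1.64, SE 0.29) lay between. Slc22a2, the basolateral cation carrier OCT2 of the later segments, ran from 9.12 through 9.76 to 10.30 in control cortex and from 6.00 through 8.41 to 10.72 in control medulla. Its medulla range took in the whole of its cortex range, and the difference did not pass (-1.25, SE 0.68, adjusted p = 0.103), though it did without control medulla animal 29 (-1.81) or animal 16 (-1.64). Without animal 30, its lowest control medulla array, the estimate was smaller in size and did not pass. Abcc4, a pump for organic anions and cyclic nucleotides that many cell types make, was 1.66-fold higher in medulla, from 9.20 through 9.27 to 9.45 in cortex and from 9.51 through 9.92 to 10.68 in medulla. Its difference of 0.73 (SE 0.17, adjusted p = 6.36e-04) fell to 0.37 and 0.39 with arrays centred and with quantile normalization repeated, and it was then not called.

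All 5 carboxylate and vitamin C carriers were lower in medulla. Slc5a12, the low-affinity lactate carrier of the early tubule, showed the lowest estimate of all members tested, with 10.33, 11.13 and 11.31 in control cortex and 6.64, 7.32 and 7.64 in control medulla, a 13.2-fold lower signal (-3.73, SE 0.29). Slc13a3, the basolateral dicarboxylate carrier, was lower as well (-3.46, SE 0.19) and its luminal relative Slc13a2, which takes up citrate, 4.14-fold lower (-2.05, SE 0.25). Slc5a8, the high-affinity lactate carrier of the late tubule, was lower (-2.45, SE 0.31), with no fold given because its medulla signal did not pass the filter, and the vitamin C carrier Slc23a1 2.33-fold lower (-1.22, SE 0.40). Among the carriers of inorganic ions, the sulfate carriers Slc13a1 (-3.39, SE 0.28) and Slc26a1 (-1.99, SE 0.15) and the basolateral bicarbonate carrier Slc4a4 (-2.75, SE 0.15) were lower. Slc9a3, the sodium and proton exchanger NHE3, which the thick ascending limb also makes, was not called (-0.19, 95% confidence interval -1.60 to 1.21), and its estimate turned above 0 without control medulla animal 15 (0.09), without animal 30 (0.42) and without animals 29 and 30 together (0.18). Slc27a2, a fatty acid carrier, was 5.51-fold lower (-2.46, SE 0.33).

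The members known from the early and from the late tubule stood apart in size, given here as a description. The 4 early genes Slc5a2, Slc2a2, Slc6a19 and Slc5a12 had a median difference of -3.26, and the 4 late genes Slc5a1, Slc5a8, Slc6a18 and Slc15a2 one of -1.35, with lowest estimates of -3.73 and -2.45 and highest of -2.72 and -0.53. Without Slc2a2 and Slc5a8, which did not pass the filter in medulla, the medians of the remaining 3 and 3 were -3.38 and -1.29. They also differed in spread. The mean of the 4 early genes ran from 6.38 to 6.82 over the 6 control medulla arrays, and that of the 4 late genes from 5.29 to 8.57. Single genes had control medulla means of 5.96 (Slc2a2) to 7.26 (Slc5a12) in the early set and 5.67 (Slc5a8) to 7.54 (Slc15a2) in the late set. Signals this near the filter at 6 limit the reading of spread and of fold, and their part in the difference was not tested.

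**Figure D2:**
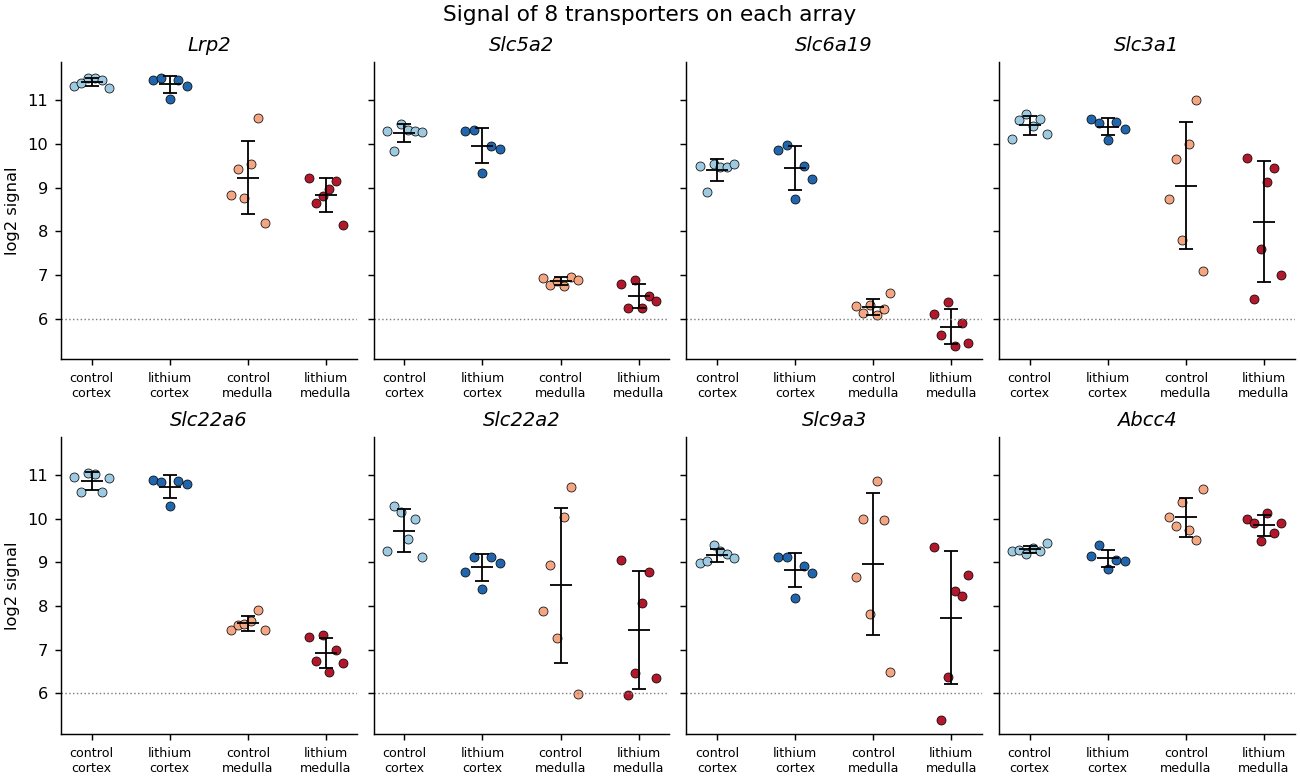
Log2 signal of 8 members on each array (points) in the 4 groups, with mean and SD (bars; n = 6, and n = 5 in lithium cortex). The dotted line marks the filter at 6. Slc5a2, Slc6a19 and Slc22a6 are tight in control medulla, while Slc3a1, Slc22a2 and Slc9a3 spread over several log2 units there, and Abcc4 alone lies higher in control medulla than in control cortex on all arrays.

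Spread within groups was larger for the members than for clusters in general. The median SD over the members tested was 0.67 in control medulla, 0.40 in lithium medulla, 0.20 in control cortex and 0.28 in lithium cortex, against 0.19, 0.19, 0.16 and 0.17 over all clusters. In control medulla the lowest SD was 0.09 (Slc5a2) and the highest 1.77 (Slc22a2). Animal 29 gave the highest control medulla value in 26 of the 35 members and animal 30 the lowest in 22. For Slc22a2 the 6 control medulla values were 7.88, 8.95, 7.26, 10.04, 10.72 and 6.00 in animals 1, 13, 15, 16, 29 and 30. In lithium cortex, animal 19 gave the lowest value in 32 of the 35.

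Markers of other nephron segments varied over the same medulla pieces. The mean of the thick ascending limb list (5 genes) was 10.03, 10.79, 8.64, 11.35, 11.06 and 7.36 in control animals 1, 13, 15, 16, 29 and 30, lowest in animals 15 and 30, which were also lowest in Slc22a2. The mean of the inner medulla list (4 genes) was 11.05, 10.00, 10.84, 10.62, 9.77 and 11.49 in the same order, highest in animal 30 and lowest in animal 29. In lithium medulla the thick ascending limb list ran from 6.38 (animal 17) to 10.62 (animal 6) and the inner medulla list from 9.51 to 10.44. What share the cut of each piece had in the member values was not tested.

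**Figure D3:**
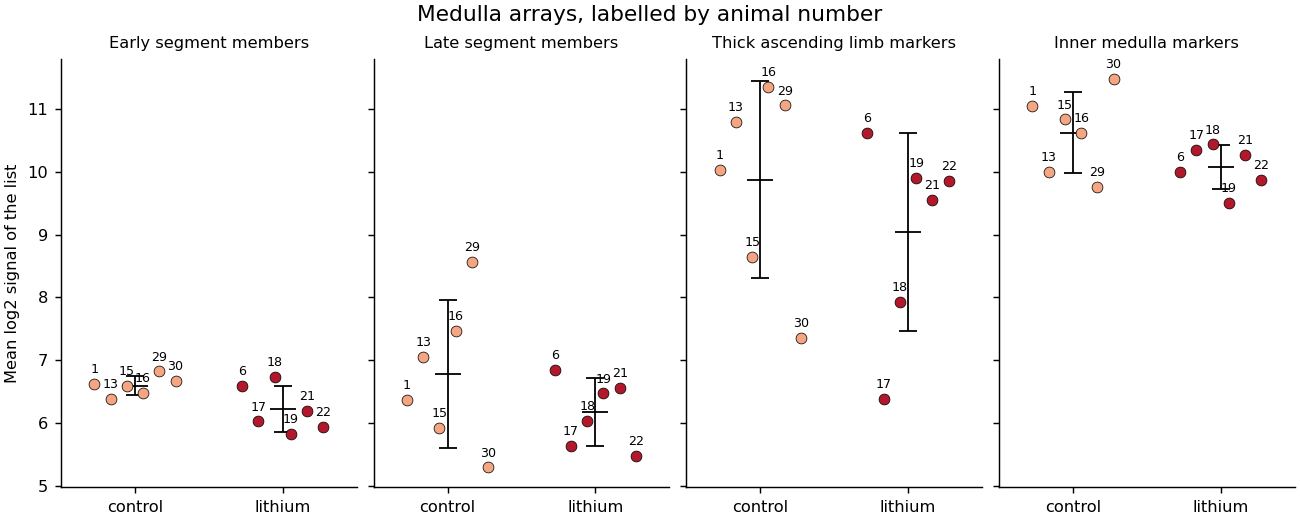
Mean log2 signal of the early segment members, the late segment members, the thick ascending limb markers and the inner medulla markers on each medulla array (points, labelled by animal number), with mean and SD of each group of 6 (bars). The early members are tight in control medulla (6.38 to 6.82), while the late members (5.29 to 8.57) and the thick ascending limb markers (7.36 to 11.35) spread widely.

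The second question was whether 6 months of lithium changed these carriers in cortex. None of the 34 members tested passed the threshold of adjusted p under 0.05 in either direction, where 0.465% of 13766 clusters were higher and 0.109% lower. Before adjustment, 3 members reached p under 0.05 in limma, all lower, where 2.63% of all clusters were lower and 1038 of 13766 reached it in either direction, the latter a share like that of the members. The methods' t-test and two-way analysis of variance called 0 after adjustment. The estimates of 26 members lay below 0 and of 8 above, with a median of -0.17 against 0.01 over all clusters. That median rested in part on lithium animal 19: without it the estimates of 19 members were below 0 and of 15 above, with a median of -0.08. Within the 3 scan groups that held both diets, the mean of all members differed by 0.09, -0.34 and -0.13, and 12 of 34 members were below 0 in all 3, as were 10.7% of all clusters.

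Slc22a2, the cation carrier OCT2, had the lowest cortex estimate. Its control values were 9.12 (lowest), 9.76 (median) and 10.30 (highest), and its lithium values were 8.77, 9.13, 8.39, 9.12 and 8.99 in animals 6, 18, 19, 21 and 22. The groups overlapped only in that the lowest control array, of animal 30, lay just under lithium animals 18 and 21. The difference was -0.85 (SE 0.24, 95% confidence interval -1.36 to -0.33), with unadjusted p = 0.00415 and adjusted p = 0.278, and it was -1.01, -1.09 and -0.49 within the 3 scan groups. It passed the threshold when scan group was left out of the fit (adjusted p = 0.0441), a setting that counts more degrees of freedom than the deposited values hold; over all settings its adjusted p ran from 0.0441 to 0.688. Non-overlapping groups with lithium lower were found for 0.719% of clusters in cortex and for no member.

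The other members with an unadjusted p under 0.05 in cortex were the sulfate carrier Slc26a1 (-0.37, SE 0.13, adjusted p = 0.487) and the fructose carrier Slc2a5 (-0.43, SE 0.19, adjusted p = 0.631). For the endocytic receptors the cortex intervals were narrow: -0.29 to 0.18 for Lrp2, -0.19 to 0.40 for Cubn and -0.56 to 0.05 for Amn. The 4 early genes had estimates of -0.29 to 0.19, with 3 of the 4 above 0. The 4 late genes had estimates of -0.41 to -0.20, all below 0. Slc13a2, the citrate carrier, had the highest estimate (0.21, 95% confidence interval -0.11 to 0.54) and was the only member above 0 in all 3 scan groups.

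In the same cortex arrays, 3 of 5 collecting duct principal cell genes were called lower, where the collecting duct is the segment that sets water loss. Aqp2, the vasopressin-regulated water channel, fell by 1.46 on the log2 scale (SE 0.19, adjusted p = 0.00391) and kept the call with any 1 array left out. The sodium channel subunits Scnn1g (-1.44, SE 0.23) and Scnn1b (-0.87, SE 0.17) were lower too, and lost the call in 6 and 9 of 12 such fits. Of the 4 inner medulla genes 1 was called in cortex, the water channel Aqp4. It was higher with lithium (2.17, SE 0.28, adjusted p = 0.00402) and kept the call with any 1 array left out.

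In medulla the lithium estimates lay further below 0. None of the 31 members tested passed the threshold in either direction, where 0.830% of 16025 clusters were higher and 0.356% lower. Before adjustment, 6 members reached p under 0.05 in limma, all lower, where 10.5% of all clusters were lower and 3135 of 16025 reached it in either direction, the latter a share like that of the members. After adjustment the methods' t-test called 1 and the methods' two-way analysis of variance 0. The estimates of 29 members lay below 0 and of 2 (Slc7a8 and Slc4a4) above, with a median of -0.54 against -0.01 over all clusters. Control animal 29 carried part of this: without it 27 estimates were below 0 and the median was -0.32. With control animals 29 and 30 both left out, 29 estimates were below 0 and the median was -0.34. Within the 3 scan groups the mean of all members differed by -0.37, -0.39 and -0.70, and 22 of the 31 members were below 0 in all 3 and 0 above in all 3, where 26.4% of all clusters were below 0 in all 3. Markers of other segments differed too. All 5 thick ascending limb genes had estimates below 0 (median -0.57), as had 3 of 4 inner medulla genes (median -0.73), with none called. Of the principal cell genes 3 were below 0 and 2 above (median -0.38), with none called. Of the glomerulus genes 1 was below and 2 above (median 0.03). The 1 below, Podxl, was called lower (-1.01, SE 0.19, adjusted p = 0.0344 in limma). That call was lost in 10 of 12 fits that left out 1 array each. All 5 intercalated cell genes were above 0 (median 1.75) with 1 called. Within the scan groups the thick ascending limb mean differed by -1.91, -1.08 and 0.49, and the inner medulla mean by -0.35, -0.76 and -0.55. The principal cell mean differed by -0.60, -0.06 and 0.16, the glomerulus mean by -0.18, -0.25 and -0.04, and the intercalated cell mean by 0.83, 1.85 and 2.48. The part of these markers in the member values was not tested.

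**Figure D4:**
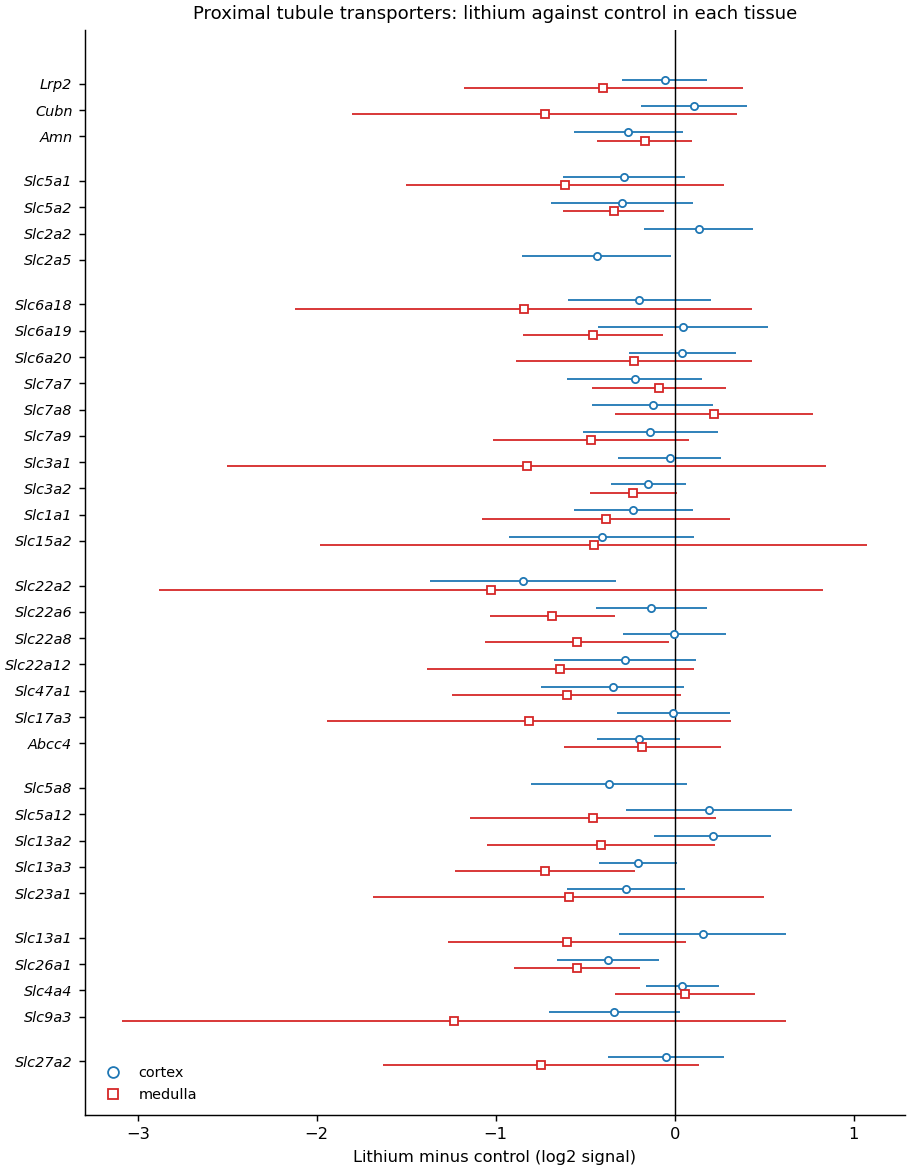
Difference in log2 signal between lithium and control (horizontal axis) in cortex (blue circles) and medulla (red squares) for each member tested, grouped by role. Bars are 95% confidence intervals from limma. No member passed an adjusted p of 0.05 in either tissue; medulla estimates lie mostly left of 0, and their intervals are widest for Slc3a1, Slc22a2, Slc9a3 and Slc15a2.

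Slc22a6, the organic anion carrier OAT1, came nearest to the threshold. Its log2 signals were 7.45, 7.57 and 7.92 (lowest, median and highest) in control medulla and 6.48, 6.87 and 7.33 in lithium medulla. It was the only member whose groups did not overlap, which was so, with lithium lower, for 1.60% of all clusters. The difference was -0.68 (SE 0.16, 95% confidence interval -1.03 to -0.33, 1.61-fold lower), with unadjusted p = 0.00123 and adjusted p = 0.0644. Within the scan groups it was -0.49, -0.71 and -0.84. It passed without scan group in the fit (adjusted p = 0.0191), in the methods' t-test after adjustment and when lithium animal 6 was left out (-0.77, adjusted p = 0.0223), and over all settings its adjusted p ran from 0.0191 to 0.255. In cortex its difference was -0.13 (SE 0.14), with 10.61, 10.94 and 11.05 in control and 10.28 to 10.89 in lithium, and these groups overlapped.

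The sulfate carrier Slc26a1 went from 6.00, 6.35 and 6.69 in control to 5.35, 5.69 and 6.12 in lithium medulla, a difference of -0.55 (SE 0.16, adjusted p = 0.113). Its groups overlapped between 6.00 and 6.12, and it too passed without scan group in the fit (adjusted p = 0.0440). The dicarboxylate carrier Slc13a3 ran from 7.58 through 8.10 to 8.63 in control and from 7.01 through 7.36 to 7.83 in lithium medulla (-0.72, SE 0.23, adjusted p = 0.130). Slc22a8 (-0.54, SE 0.24), Slc6a19 (-0.46, SE 0.18) and Slc5a2 (-0.34, SE 0.13) were the others with an unadjusted p under 0.05, and their adjusted p values were 0.232, 0.193 and 0.179. These 6 were members with SDs of 0.09 to 0.40 in control medulla.

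The largest medulla estimates belonged to members with wide spread and were not distinguished from 0. Slc9a3 differed by -1.23 (95% confidence interval -3.09 to 0.62), with 6.49, 9.31 and 10.87 in control and 5.40, 8.29 and 9.34 in lithium medulla. Slc22a2 differed by -1.03 (-2.88 to 0.83), with 6.00 to 10.72 in control and 5.97 to 9.05 in lithium. Slc6a18 (-0.84), Slc3a1 (-0.83), Slc17a3 (-0.81), Slc27a2 (-0.75) and Cubn (-0.73) had intervals that took in 0. By role, the median medulla difference was -0.40 for the 3 endocytic genes, -0.42 for the 10 amino acid and peptide genes, -0.64 for 7 organic ion carriers, -0.52 for 4 carboxylate and vitamin C carriers and -0.57 for the 4 inorganic ion carriers. Both sugar carriers tested in medulla, Slc5a1 (-0.61) and Slc5a2 (-0.34), were below 0.

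Whether lithium acted differently in the tissues was tested as the medulla effect minus the cortex effect. No member of 34 passed, where 0.0854% of 16388 clusters were higher and 0.00610% lower, and before adjustment 1 member reached p under 0.05 and was lower, where 7.37% of clusters were lower. That member was Slc22a6 (-0.55, SE 0.23, unadjusted p = 0.0241, adjusted p = 0.352). The estimates of 29 members were below 0 and of 5 above, with a median of -0.33 against -0.03 over all clusters. For Slc22a2, which had low estimates in both tissues, the difference was -0.18 (95% confidence interval -2.26 to 1.90).

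Other genes of the proximal tubule were followed in lists of their own. Of 35 measured genes for other carriers, scaffold and endocytic partners, brush border enzymes and transcription factors, 31 were tested between the tissues, and 21 were lower and 3 higher in control medulla, with a median of -1.41. Lowest in adjusted p among the other carriers were the phosphate carriers Slc34a3 (-3.07, SE 0.17) and Slc34a1 (-2.79, SE 0.25) and the inositol carrier Slc5a11 (-1.57, SE 0.19). Among the partners, the brush border scaffold Pdzk1 was lower (-3.14, SE 0.24) while Gipc1 (0.92, SE 0.07) and the lipid phosphatase Ocrl (1.07, SE 0.12) were higher; both are made in many cell types. The peptidases Dpep1 (-1.86, SE 0.25), Enpep (-1.94, SE 0.26) and Dpp4 (-2.02, SE 0.51) were lower. All 3 measured transcription factors were lower in medulla: Hnf4a, a master regulator of proximal tubule genes, by -2.42 (SE 0.29), Hnf4g by -2.36 (SE 0.38) and Ppara, a regulator of fatty acid use, by -1.01 (SE 0.34). Of the genes named here, Slc5a11 and Hnf4g did not pass the filter in medulla and Ocrl did not pass in cortex. Each of these entered the test only through the tissue where it was higher.

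With lithium, none of 28 such genes tested in cortex passed, and 1 of 28 did in medulla. Clcn5, which encodes the chloride and proton exchanger of endosomes that works in the megalin pathway and is also made in intercalated cells, ran from 7.34 through 7.79 to 8.48 in control and from 8.54 through 8.94 to 9.42 in lithium medulla. It was 2.28-fold higher without overlap (1.19, SE 0.21, adjusted p = 0.0236), and it lost the call in 8 of 12 fits that left out 1 array each, namely control animal 13, 15 or 16 or lithium animal 17, 18, 19, 21 or 22 (estimates of 1.07 to 1.36, adjusted p = 0.00840 to 0.0690). Beside it Lrp2 differed by -0.40 (SE 0.36) and Cubn by -0.73 (SE 0.49). As a group, markers of intercalated cells were also higher with lithium. The mean of the 5 was 6.27 to 9.29 over control and 9.35 to 10.42 over lithium medulla arrays. All 5 estimates lay above 0, and Slc4a9 passed (1.99, SE 0.32, adjusted p = 0.0156), though not without lithium animal 19, 21 or 22. In control medulla animal 30 had the lowest and animal 29 the highest value of Clcn5 (7.34 and 8.48) and of each of the 5 markers. In lithium medulla animal 17 had the highest Clcn5 value (9.42) and the lowest value of each of the 5 markers. The part of these markers in the Clcn5 value was not tested. Hnf4a differed by -0.67 in medulla and -0.23 in cortex, and neither passed.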

How the data were processed

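Total RNA from the cortex and medulla of 12 rats was hybridised to Affymetrix rat arrays, named Rat Gene 1.0 ST in the methods and Rat Exon 1.0 ST in the series record. The authors deposited log2 signals of 28894 transcript clusters, for which Partek software had corrected background by the RMA method, applied quantile normalization, summarised probes by median polish, averaged the probe sets and taken out scan date by analysis of variance. RMA, Partek and the rn4 build also stand in the submitters' processing notes, and rn4 coordinates were not used. Clusters were named from the platform annotation (15097 with 1 symbol, 323 with several, 13474 unnamed here), and members were matched by symbol. The number of arrays limits the precision.

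Scan groups were recovered from combinations of arrays that held no residual variance (4 in cortex, 3 in medulla, leaving 7 and 8 residual degrees of freedom). The scan dates themselves were not used here, and so no check of the groups against dates was made. limma 3.58.1 in R 4.3.3 fitted diet and scan group within each tissue on 12 arrays, and 4 group means with scan group within tissue on 24 arrays for the tissue comparison and the difference of lithium effects. Clusters that reached 6 on at least 4 of 12 arrays in a tissue (either tissue for 24 arrays) were tested, with Benjamini-Hochberg adjustment over all of them and a threshold of 0.05. Fits were tested on simulated data. Group means ± SD are of deposited values, and after removal of scan date SDs are too small to some degree. The promoter sequences are those of RefSeq on GRCr8. Tables were handled in Python 3.11.15 with pandas 2.3.3.

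Numbers pair the tissues, since both came from the same animal; deviations of the 2 arrays of an animal correlated from -0.09 to 0.44 over 11 animals and 13403 clusters. Alternatives were no scan group, no filter, a filter at 7, arrays centred on their median, quantile normalization repeated, the mean of all clusters of a gene, each array left out, the animal as a replicate block, control arrays alone, and the methods' own tests (p under 0.05 with a fold over 1.5). All 37 members are described by role; from other lists up to 3 genes per role with the lowest adjusted p were named. Called with lithium, Clcn5, Slc4a9, Podxl, Aqp4 and the principal cell genes follow the same rule. Between the tissues, the marker genes of other segments were not named by this rule. Members and lists were chosen with earlier results of these data known.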

Additional observations from a re-analysis of the deposited data

Results flagged for a closer look

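In groups of 5 or 6 arrays, a member was looked at again where its lowest or highest array lay far from the nearest other array relative to the whole range of the group. Of 140 member and group pairs, 11 were of this kind, and chance flags about 1 in 20, or 7.0 of 140. The members share arrays, so these are not separate events.

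In control cortex animal 13 was the lowest array for 16 of the 35 members and the highest for 5. It stood apart in this way at the low end for 5. The gap to the next array took up 0.871 of the range for Slc6a19 (8.91 against 9.47), 0.729 for Slc5a2 (9.85 against 10.29), 0.722 for Slc7a7, 0.705 for Slc7a9 and 0.636 for Slc26a1.

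In lithium cortex animal 19, the lowest array for 32 of the 35, stood apart in this way for 4, with a gap of 0.827 of the range for Slc22a6 (10.28 against 10.78), 0.784 for Slc23a1, 0.740 for Amn and 0.726 for Slc17a3. In control medulla animal 29 was highest for Slc7a9 (7.37 against 6.45, a gap of 0.733), and in lithium medulla animal 22 was lowest for Slc47a1 (6.40 against 6.92, a gap of 0.684).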

How the results depend on the processing

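No estimate of the 30 members called between the tissues changed sign over 1020 values under the alternatives, and 20 of these lost the call, those of Slc3a1, Slc6a18, Slc1a1 and Abcc4. Members lower in control medulla numbered 26 to 32 with single arrays left out and 28 with no filter on low values, where members higher numbered 2 with Slc22a7 called; 0 were higher with arrays centred or with quantile normalization repeated. Members lower with lithium in cortex, 0 in the fit reported, were 1 (Slc22a2) without scan group, and 1 by the methods' two-way analysis of variance and 1 by the methods' t-test at an unadjusted p under 0.05 with a fold over 1.5. In medulla the number lower, also 0, was 2 (Slc22a6 and Slc26a1) without scan group, 0 to 1 with single arrays left out (1 without lithium animal 6), 1 by the methods' t-test after adjustment, and 2 by the methods' t-test and 2 by the two-way analysis of variance at the methods' threshold. With the animal as a replicate block (paired tissues, consensus correlation 0.15), 29 members were lower and 1 higher in control medulla and 0 differed in their lithium effect, as without it; this held for the 12 control arrays alone too, with and without the block. Leaving out control medulla animals 29 and 30 together, chosen after seeing the data, gave 29 lower and 1 higher between tissues and 0 with lithium in medulla. Over all clusters, calls without scan group rose to 207 higher and 81 lower in cortex, and to 533 and 519 in medulla. With arrays centred, medulla calls were 101 higher and 96 lower. Signals near the filter limit Slc2a2, Slc2a5, Slc5a8 and Slc22a7, and in medulla also other members such as Slc6a19 and Slc26a1. The spread of medulla pieces limits the late segment members.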
